A study of Secale cereale x Triticum turgidum subsp. durum with 39 samples.

Results

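Ovaries and stigmas of triticale, the wheat and rye hybrid crop, were compared between the tetrad (TET) and uninucleate microspore (UNM) stages, which name the state of the pollen in the same florets. The 12 arrays of the Ovary TET, Ovary UNM, Stigma TET and Stigma UNM groups were chosen by their labelled organ and stage, 3 biological replicates a group, out of 39 arrays in 13 groups of the series. Plants were of the cultivar Alta and were grown untreated in a growth chamber. Total RNA was read on Affymetrix Wheat Genome Arrays, and the values are log2 signals from the robust multi-array average (RMA), on which 1 unit is a doubling. The number of tissue pools or plants behind a replicate was not given in the sources used here. After 111 control probe sets were set aside, 61179 of 61290 probe sets were tested.

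The preparation changed together with the stage. Per the labels' protocols, RNA of TET organs was extracted with the PicoPure kit and labelled in a 2-cycle reaction from 50 to 100 ng, and RNA of UNM organs was extracted with the RNeasy plant kit, cleaned with an InviTrap kit and labelled from 1 ug with the 3' IVT Express kit. Stage and kit therefore cannot be told apart within either organ. Both organs went through the same change of kits, so the measure followed here is the stigma change minus the ovary change, each taken as UNM minus TET on the log2 scale. A kit effect that differs between organs would remain in that difference. In whole organs, fewer cells of a type and less RNA per cell cannot be told apart either.

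The pistil of grasses holds a single ovary that carries a pair of feathery stigmas. As a stigma matures its papillate branches become receptive to pollen, while the ovary encloses the ovule and later becomes the grain. Known processes in these organs include cell wall loosening during growth, methylation-cycle metabolism and, in the green ovary wall of cereals, photosynthesis.

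Each of the 12 arrays correlated best with another array of its own group, with Pearson's r of 0.988 to 0.994 within groups over the probe sets. The first principal component of the 12 arrays held 60.5% of the variance and separated the stages, and the second held 16.6% and separated the organs. The mean signal of 9 hybridisation controls, which are spiked in after labelling, was 10.57 to 10.75 in Ovary TET and 10.08 to 10.66 in Stigma TET, against 11.10 to 11.34 at UNM. Stigma TET replicate 1 had the lowest 99th percentile of signal, 11.49, where the other 11 arrays had 11.91 to 12.02. Ovary TET replicate 3 stood apart in a list of 63 probe sets that fell at least 16-fold in anthers over the same step from an anther TET mean of at least 8. This list was chosen after its values were seen. Its median signal was 8.49 in that array, 6.26 and 6.44 in the other Ovary TET arrays, 5.85 to 6.17 in Stigma TET, 5.51 to 5.74 over both organs at UNM, and 10.61 to 10.98 in anthers at TET. All 63 probe sets are measured as signals above 0 on every array, so no level of absence can be read from them. Counts without these arrays are given beside some of the results they touch.

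The change in the stigma differed from the change in the ovary at 875 probe sets, 351 in which the stigma change was higher and 524 in which it was lower. These are 0.574% and 0.857% of all probe sets tested. A call needed a Benjamini-Hochberg adjusted p under 0.05 over all probe sets and a difference of at least 1 on the log2 scale. The difference passed 2 log2 units, or 4-fold, at 90 higher and 149 lower probe sets, and 4 log2 units, or 16-fold, at 7 higher and 13 lower ones. Leaving out Ovary TET replicate 3 gave 311 higher and 454 lower calls, and leaving out Stigma TET replicate 1 gave 302 and 464. Of the 63 anther TET probe sets, 2 (3.17%) were among the higher and 2 (3.17%) among the lower calls, above the shares of all probe sets. Scaling the arrays on the hybridisation controls instead gave 170 higher and 1147 lower calls and moved the median difference over all probe sets from 0.03 to -0.30, so the split between directions rests on the scaling.

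**Figure D1:**
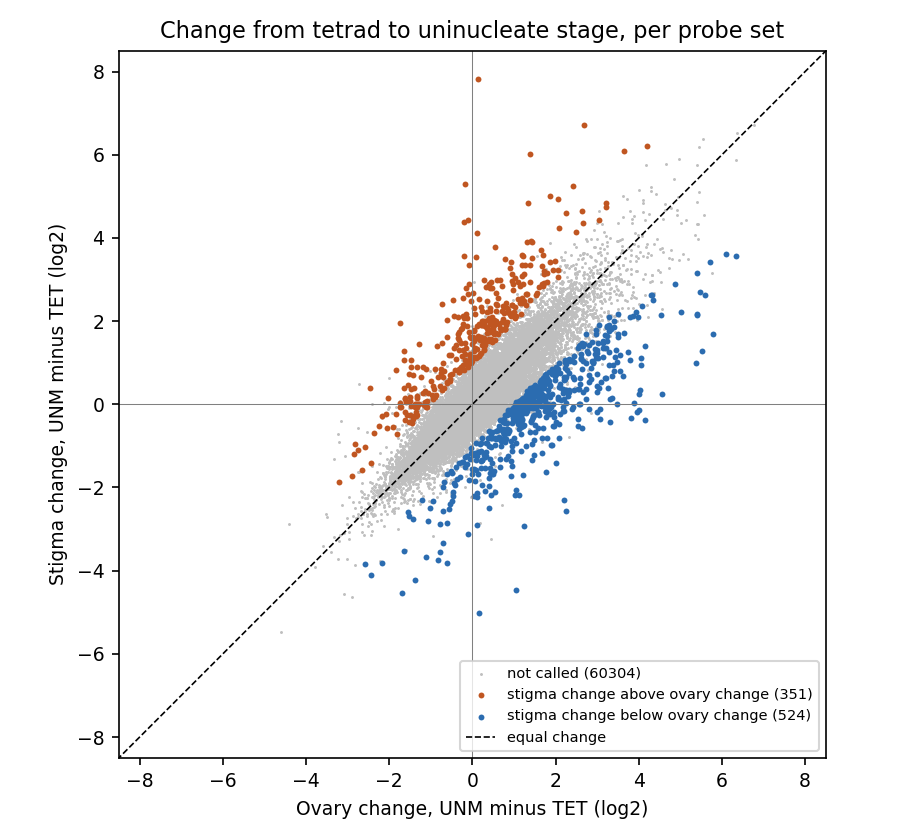
Each point is a probe set, with its ovary change on the x axis and its stigma change on the y axis, both UNM minus TET on the log2 scale. Most of the 61179 probe sets lie near the dashed line of equal change, and the 351 orange and 524 blue points are those at which the stigma change was above or below the ovary change.

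The calls held members that moved in both directions in each organ. Among the 351 higher probe sets, the median level went from 5.56 to 7.70 in the stigma and from 6.32 to 6.38 in the ovary. Taken by itself, with the same arrays, the stigma change was called higher at 246 of them and lower at 7, and the ovary change was called higher at 63 and lower at 71. The size of the change was larger in the stigma for 266 and in the ovary for 85. Among the 524 lower probe sets, the median level went from 5.74 to 7.57 in the ovary and from 5.99 to 5.84 in the stigma, and the larger change was in the ovary for 389 and in the stigma for 135. The ovary change by itself was called higher at 364 of them and lower at 13, and the stigma change was called higher at 84 and lower at 116. Over all probe sets the median size of the difference of changes was 0.18. In anthers, which passed through the same change of kits and share no array with these organs, 113 of the 351 were called higher at UNM (32.2%, against 8.77% of all probe sets) and 46 lower (13.1%, against 6.58%). Of the 524, 203 were called higher in anthers (38.7%) and 39 lower (7.44%). Signals under 6 are near the floor of these arrays, and 46 of the higher and 74 of the lower probe sets had means under 6 in all 4 groups.

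The platform annotation, dated 2007, gave no gene name to most of these probe sets, which are therefore given by ID. Those shown have the largest called differences among probe sets whose organs did not overlap at the stage of the larger gap and whose brightest group reached 8. The leading 2 with a higher stigma change were near the floor at TET and bright in the UNM stigma. Ta.3873.1.S1_at gave 2.74, 2.70 and 2.68 in Ovary TET, 2.79, 3.03 and 2.70 in Ovary UNM, 2.72, 2.78 and 2.86 in Stigma TET, and 11.05, 9.17 and 11.61 in Stigma UNM. The 3 Stigma UNM arrays stood far above the other 9, which overlapped among themselves. The difference of changes was 7.69 ± 0.68 (SE, n = 3 arrays a group; adjusted p = 2.0e-09), and the stigma change alone was 7.82 (adjusted p = 8.5e-15). In anthers the mean was 2.84 at TET and 2.81 at UNM.

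Ta.9169.1.S1_at had a similar course. It gave 3.40, 3.70 and 3.60 in Ovary TET, 3.50, 3.32 and 3.36 in Ovary UNM, 4.80, 5.35 and 5.68 in Stigma TET, and 10.91, 9.57 and 11.21 in Stigma UNM. The stigma was above the ovary at both stages without overlap, and the organs moved apart by a further 5.46 ± 0.39 (SE; adjusted p = 2.2e-11). For both probe sets Stigma UNM replicate 2 was the lowest of its group.

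On the other side, TaAffx.38488.1.A1_at was bright in Stigma TET, with a mean of 8.72. Its means were near the floor in Ovary TET (4.73), Ovary UNM (5.77) and Stigma UNM (4.24). It gave 4.80, 4.65 and 4.75 in Ovary TET, 5.51, 6.05 and 5.77 in Ovary UNM, 8.36, 8.94 and 8.85 in Stigma TET, and 4.40, 3.85 and 4.47 in Stigma UNM. The stigma was above the ovary at TET and below it at UNM, in each case without overlap, although the order at UNM rests on dim signals. The ovary rose by 1.04 (adjusted p = 8.0e-04), the stigma fell by 4.47 (adjusted p = 4.1e-16), and the difference of changes was -5.52 ± 0.34 (SE; adjusted p = 1.1e-12). In anthers the same probe set rose from a mean of 4.42 to 6.92.

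Ta.1671.2.A1_x_at was lost from the stigma signal and kept in the ovary. It gave 9.54, 10.01 and 9.68 in Ovary TET, 9.59, 10.07 and 10.06 in Ovary UNM, 8.12, 8.48 and 8.21 in Stigma TET, and 3.13, 3.10 and 3.50 in Stigma UNM. The 2 ovary groups overlapped, and the 3 Stigma UNM arrays lay below all others. The stigma fell by 5.02 on the log2 scale, to a level near the floor (adjusted p = 4.3e-15), the ovary change was 0.16 (adjusted p = 0.71), and the difference of changes was -5.19 ± 0.42 (SE; adjusted p = 3.9e-10). In anthers it was called lower as well, with means from 5.53 at TET to 3.46 at UNM, both under 6 (adjusted p = 6.3e-07). The suffix _x_at marks probe sets whose probes can also match other transcripts, so the signal of Ta.1671.2.A1_x_at may hold several gene copies. All 4 differences stayed called, in the same direction, under each of the 22 alternative settings tried, the 12 that leave out 1 array each included.

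**Figure D2:**
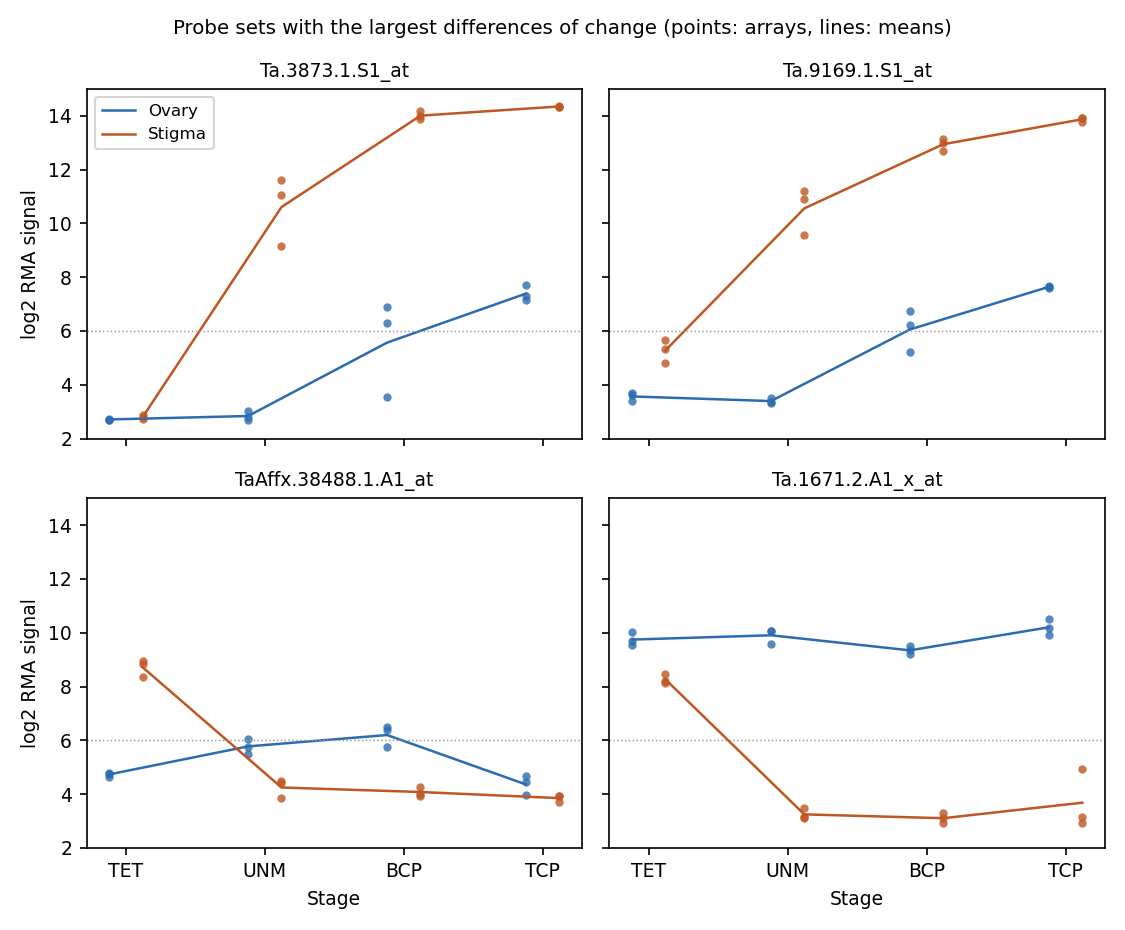
Log2 RMA signal on the y axis against stage on the x axis for the 4 probe sets given by ID in the difference of changes, with points for single arrays, lines through the means of 3 arrays, and a dotted line at 6. The stigma lines of Ta.3873.1.S1_at and Ta.9169.1.S1_at go from under 6 at TET to above 9 at UNM in every array, and those of TaAffx.38488.1.A1_at and Ta.1671.2.A1_x_at go from above 8 to under 5.

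The later stages gave values for these probe sets in arrays whose levels did not enter the difference of changes, although all arrays shared its estimate of the spread. The bicellular pollen (BCP) organs were prepared with the UNM extraction kits, and the tricellular pollen (TCP) organs with caesium chloride extraction and a larger RNA input. A kit effect that differs between organs at UNM could recur at BCP, so the BCP gaps cannot tell it from stage. Ta.3873.1.S1_at stood at 13.99, 13.87 and 14.17 in Stigma BCP and at 6.28, 3.54 and 6.88 in Ovary BCP, a gap of 8.44 (adjusted p = 1.2e-15). For Ta.9169.1.S1_at the gap at BCP was 6.89 (adjusted p = 1.6e-19), and for Ta.1671.2.A1_x_at it was -6.24 (adjusted p = 1.2e-17). TaAffx.38488.1.A1_at kept a gap of -2.12 at BCP (adjusted p = 2.1e-08), and at TCP its gap of -0.51 was not called (adjusted p = 0.12).

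Over the whole lists, 221 of the 351 higher probe sets were also called higher in stigma than in ovary at BCP, which is 63.0% against 3.04% of all probe sets, and 30 were called lower. Of the 524 lower probe sets, 298 were called lower in stigma at BCP, which is 56.9% against 3.85% of all probe sets, and 19 were called higher. At TCP, where the background was 5.69% higher and 6.99% lower calls, 176 of the 351 were called higher and 42 lower, and 252 of the 524 were called lower and 76 higher. Under the scaling on hybridisation controls, 129 of 170 (75.9%) were called higher at BCP and 426 of 1147 (37.1%) lower. The share at BCP differed by which stage held the larger gap between the organs. Together with the call, this split fixes the order of the TET and UNM gaps and the direction of the larger one. The TET and UNM medians are therefore largely set by the choice, which did not use the BCP gap. For 251 higher probe sets with the larger gap at UNM, 208 (82.9%) were called higher at BCP, and the median gap went from 0.07 at TET to 1.68 at UNM and 2.06 at BCP. For the 100 with the larger gap at TET, 13 were called higher and 27 lower at BCP, and their median gap was -1.69 at TET, -0.12 at UNM and -0.31 at BCP. Leaving out Ovary TET replicate 3 gave 184 called higher at BCP of 221 with the larger gap at UNM. Leaving out Stigma TET replicate 1 gave 179 of 212.

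The lower calls divided in a similar way. For 398 with the larger gap at UNM, the median gap was -0.06 at TET, -1.72 at UNM and -1.71 at BCP, and 273 (68.6%) were called lower at BCP. For the 126 with the larger gap at TET, the median gap was 1.70 at TET, -0.31 at UNM and -0.18 at BCP, and 25 were called lower and 16 higher at BCP. Without Ovary TET replicate 3, 232 of 324 lower calls with the larger gap at UNM were called lower at BCP. Without Stigma TET replicate 1, 236 of 338 were.

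**Figure D3:**
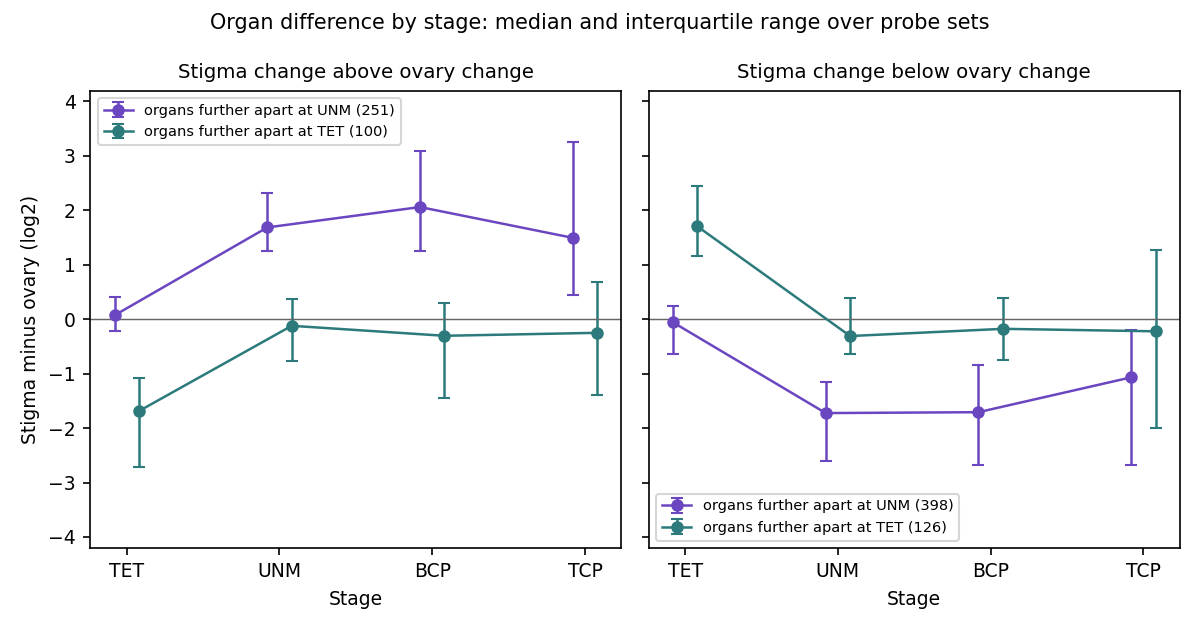
Stigma minus ovary signal (log2) on the y axis against stage on the x axis, as the median and interquartile range over the probe sets called higher (left) or lower (right) in the difference of changes, split by the stage at which the organs were further apart. Gaps that were larger at UNM had medians of 2.06 and -1.71 at BCP, and gaps that were larger at TET had medians of -0.31 and -0.18 there.

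A small group of probe sets was bright, with a mean of at least 8, in 1 of the 4 groups and under 6 in the other 3. This choice fixes the high level in that group and nearly fixes a call in the difference of changes, so these are given as a description. In the UNM stigma there were 12, of which 11 were called higher in the difference of changes, and their median stigma level went from 4.80 to 8.34. At BCP, which the choice did not use, all 11 were called higher in stigma, and their median gap was 5.23. In the UNM ovary there were 14, of which 12 were called lower, and their median ovary level went from 5.17 to 8.62. All 12 were called lower in stigma at BCP, with a median gap of -3.16. The TET groups held fewer, with 1 in the ovary and 2 in the stigma.

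The ovary rose at 4392 probe sets (7.18% of those tested) and fell at 2307 (3.77%). The stigma rose at 4489 (7.34%) and fell at 2248 (3.67%). Without Stigma TET replicate 1 it rose at 4268 and fell at 2724. A rise in both organs was called at 3239 probe sets, 73.7% of the ovary rises and 72.2% of the stigma rises, and a fall in both at 1508, 65.4% of the ovary falls and 67.1% of the stigma falls. Scaling on the hybridisation controls gave 2145 rises and 9823 falls in the ovary and 1345 rises and 24343 falls in the stigma, so the balance of rises and falls within an organ was not fixed by these data. That scaling moved the median change over all probe sets to -0.60 in the ovary and -0.91 in the stigma. With the arrays set to a common median of their brighter 50% of signals, the calls were 3209 and 4074 in the ovary, and 3417 and 3417 in the stigma. Another 1139 rises and 794 falls were called in the ovary alone, and 1245 rises and 726 falls in the stigma alone. A call in 1 organ alone is no test of a difference, and the difference of changes, which uses the same arrays, called 875 in all.

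Opposite movement was uncommon. A rise in the ovary with a fall in the stigma was called at 14 probe sets, with median changes of 1.34 and -1.89, and TaAffx.38488.1.A1_at is 1 of them. Their median level went from 5.75 to 7.07 in the ovary and from 8.30 to 5.78 in the stigma. Their ovary rises ran from 1.03 to 2.26. Scaling on the hybridisation controls moved the median ovary change over all probe sets from -0.07 to -0.60. The smaller ovary rises, that of TaAffx.38488.1.A1_at included, would fall short of 1 under it. A pair of the 14 share a cluster number and may read the same transcript. At BCP 8 of the 14 were called lower in stigma and 0 higher, against 3.85% and 3.04% of all probe sets, and at TCP 8 were called lower and 4 higher, against 6.99% and 5.69%. A fall in the ovary with a rise in the stigma was called at 5 probe sets, with median changes of -1.63 and 1.29, and at BCP 4 of the 5 were called higher in stigma and 1 lower.

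Ta.24110.1.A1_s_at was the leading rise of the ovary by the rule for naming IDs and the next after Ta.3873.1.S1_at in the stigma. Its signal was 2.99, 3.89 and 3.32 in Ovary TET and 9.97, 10.52 and 10.05 in Ovary UNM, and it was 3.28, 3.21 and 3.12 in Stigma TET and 9.91, 9.94 and 9.91 in Stigma UNM. No TET array overlapped a UNM array in either organ. The changes were 6.78 in the ovary (adjusted p = 4.8e-17) and 6.72 in the stigma (adjusted p = 2.2e-17), with a difference of -0.06 and a 95% interval of -0.98 to 0.86. The organs parted later, with a gap of -3.21 at BCP (adjusted p = 1.2e-09).

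Ta.7740.1.A1_at rose by 6.36 in the ovary (adjusted p = 7.4e-10). Its Ovary TET values were 2.76, 2.81 and 6.97, and its Ovary UNM values were 9.90, 10.85 and 10.85. Replicate 3 stood apart at TET, and without it the ovary change was 7.75. The stigma rose by 6.53 (adjusted p = 3.7e-10), from 5.79, 3.56 and 3.73 to 10.67, 10.30 and 11.72. The difference of changes was 0.18 and was not called. In anthers the mean was 10.79 at TET and 10.46 at UNM.

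The falls held probe sets that were bright in TET anthers. Ta.26512.2.A1_at fell by 4.60 in the ovary (adjusted p = 2.8e-10), from 8.96, 8.40 and 8.91 to 4.19, 4.00 and 4.27. In the stigma it fell by 5.46 (adjusted p = 4.9e-12), from 12.06, 8.81 and 8.48 to 4.02, 4.49 and 4.45, and by 4.33 without Stigma TET replicate 1, which was the high array. The TET anthers gave 8.85, 9.42 and 8.72 for this probe set, all below that stigma array. Its means were 4.35 in the ovary and 4.23 in the stigma at BCP, and 8.17 and 7.80 at TCP. Ta.15955.2.S1_a_at went from 7.89, 9.20 and 11.36 in Ovary TET to 5.37, 4.63 and 5.19 in Ovary UNM, and its mean in TET anthers was 13.80. Its fall of 4.42 (adjusted p = 1.1e-07) became 3.48 without Ovary TET replicate 3. Both IDs are in the list of 63 anther TET probe sets, of which 33 (52.4%) were called lower in the ovary with all arrays and 17 (27.0%) without Ovary TET replicate 3, against 3.77% and 3.76% of all probe sets. In the stigma 14 of the 63 (22.2%) were called lower, against 3.67% of all probe sets. The part of carried-over anther tissue in these falls was not tested. The 63 were chosen by a fall in anthers over the same change of kits, so a kit effect shared by the organs cannot be told apart here either. A second list held 381 probe sets that were at least 16-fold higher in UNM anthers than in both pistil organs, so its low pistil level at UNM was set by the choice. At TET, which the choice did not use, its median was 4.31 in the ovary, 4.16 in the stigma and 5.55 in anthers.

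Named genes were few, since 13 genes with 19 probe sets carried a name. None of the 13 was called in the difference of changes by limma, and 2, petC and GAPN, had an unadjusted p under 0.05. In each organ 3 of the 13 were called higher, petC, XTH and SAHH, where 7.18% of all probe sets were called higher in the ovary and 7.34% in the stigma. None was called lower by its representative probe set. Scaling on the hybridisation controls ended the stigma call of petC (0.40) and the calls of XTH (0.85 in the ovary and 0.56 in the stigma) and SAHH (0.60 and 0.70), each of which stayed above 0, and it made the difference of changes of petC a call (-1.19, adjusted p = 0.028). Scaling on the brighter signals ended the ovary call of SAHH (0.90). Falls became calls as well, all of them in genes with means under 6, near the floor, in all 4 groups. COR410 was called lower in the ovary under both scalings (-1.15 and -1.45), without Ovary TET replicate 3 (-1.03) and without Ovary UNM replicate 3 (-1.17), and in the stigma under the hybridisation controls (-1.36). GAPN was called lower in the stigma under both scalings (-1.01 and -1.68), and under the hybridisation controls CAT1 (-1.17) and TTHV (-1.25) were called lower in the stigma and THI1.1 in both organs (-1.11 and -1.34). The stigma rise of FBP became a call without Stigma UNM replicate 2 (1.13).

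petC encodes the Rieske iron-sulphur protein of the cytochrome b6f complex in the chloroplast electron transport chain. Its signal was 7.88, 7.64 and 7.73 in Ovary TET, 9.68, 9.95 and 9.99 in Ovary UNM, 6.69, 7.05 and 6.67 in Stigma TET, and 8.21, 7.69 and 8.25 in Stigma UNM. Both organs rose without overlap between the stages, and every ovary array was above every stigma array of its stage. The ovary rose 4.35-fold (log2 2.12, adjusted p = 6.8e-10) and the stigma 2.38-fold (log2 1.25, adjusted p = 1.3e-05). The difference of changes was -0.87, with a 95% interval of -1.48 to -0.26, and was not called (adjusted p = 0.18). The gap between the organs was -0.95 at TET, -1.82 at UNM, -1.76 at BCP and -2.95 at TCP. In anthers petC rose by 2.68 over the same step. The other petC probe set stayed near the floor, with means from 3.45 to 3.47 in the ovary and from 3.28 to 3.52 in the stigma.

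XTH encodes a xyloglucan endotransglucosylase/hydrolase, an enzyme that cuts and rejoins xyloglucan in the cell wall. Its signal was 8.18, 7.82 and 7.38 in Ovary TET, 9.08, 9.35 and 9.06 in Ovary UNM, 7.95, 7.45 and 7.41 in Stigma TET, and 9.09, 8.71 and 9.22 in Stigma UNM. The stages did not overlap in either organ, and the organs overlapped at both stages. The rise was 1.37 in the ovary (adjusted p = 2.2e-06) and 1.40 in the stigma (adjusted p = 1.4e-06), with a difference of 0.03 and a 95% interval of -0.57 to 0.63. The organs differed at BCP by 1.63 (adjusted p = 1.9e-07) and at TCP by 3.18 (adjusted p = 9.2e-15), with the stigma above the ovary.

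SAHH encodes S-adenosylhomocysteine hydrolase, which clears the by-product of methyl transfer from S-adenosylmethionine. Its signal was 12.25, 12.23 and 12.19 in Ovary TET, 13.19, 13.39 and 13.48 in Ovary UNM, 11.85, 12.26 and 12.26 in Stigma TET, and 13.67, 13.50 and 13.84 in Stigma UNM. The organs overlapped at TET, and every Stigma UNM array was above every Ovary UNM array. The rise was 1.13 in the ovary (adjusted p = 3.4e-07) and 1.54 in the stigma (adjusted p = 5.8e-10). The difference was 0.42, with a 95% interval of -0.03 to 0.86, and was not called (adjusted p = 0.51). Its other probe set changed by 1.07 and 1.51.

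GAPN, the non-phosphorylating glyceraldehyde-3-phosphate dehydrogenase of the cytosol, was near the floor in both organs. It gave 5.27, 5.23 and 5.65 in Ovary TET, 5.68, 5.50 and 4.91 in Ovary UNM, 5.49, 5.37 and 5.41 in Stigma TET, and 4.63, 4.52 and 4.62 in Stigma UNM. The Stigma UNM arrays were below the other 9. The stigma change was -0.83 (adjusted p = 0.0073), short of the required 1 log2 unit, and the difference of changes was -0.82 (adjusted p = 0.35). In anthers GAPN rose by 4.33.

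FBP, fructose bisphosphatase, an enzyme of sugar synthesis, had a pair of probe sets that disagreed. The representative one changed by 0.65 in the ovary and 0.94 in the stigma and stayed under 6 in the group means, and the other was called lower in both organs, with means from 6.10 to 4.60 in the ovary and from 6.18 to 4.67 in the stigma. TUBA, alpha-tubulin of the microtubules, was bright throughout in its representative probe set. Its means went from 13.43 to 13.84 in the ovary and from 13.21 to 13.83 in the stigma. The other TUBA probe set was near the floor, with means from 3.93 to 4.28 and from 4.36 to 4.31. The other named genes had differences of changes from -0.10 to 0.41. They are the catalase CAT1 (0.00), the dehydrin COR410 (0.41), PFK (-0.03), the TATA-binding protein TBP1 (0.01) and the thionins THI1.1 (0.10), THI1.2 (0.12) and TTHV (-0.10), which are small defence peptides. TBP1 had means of 9.87 to 10.25. CAT1, COR410, PFK and the thionins had means under 6 in all 4 groups, near the floor, so their small differences say little.

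**Figure D4:**
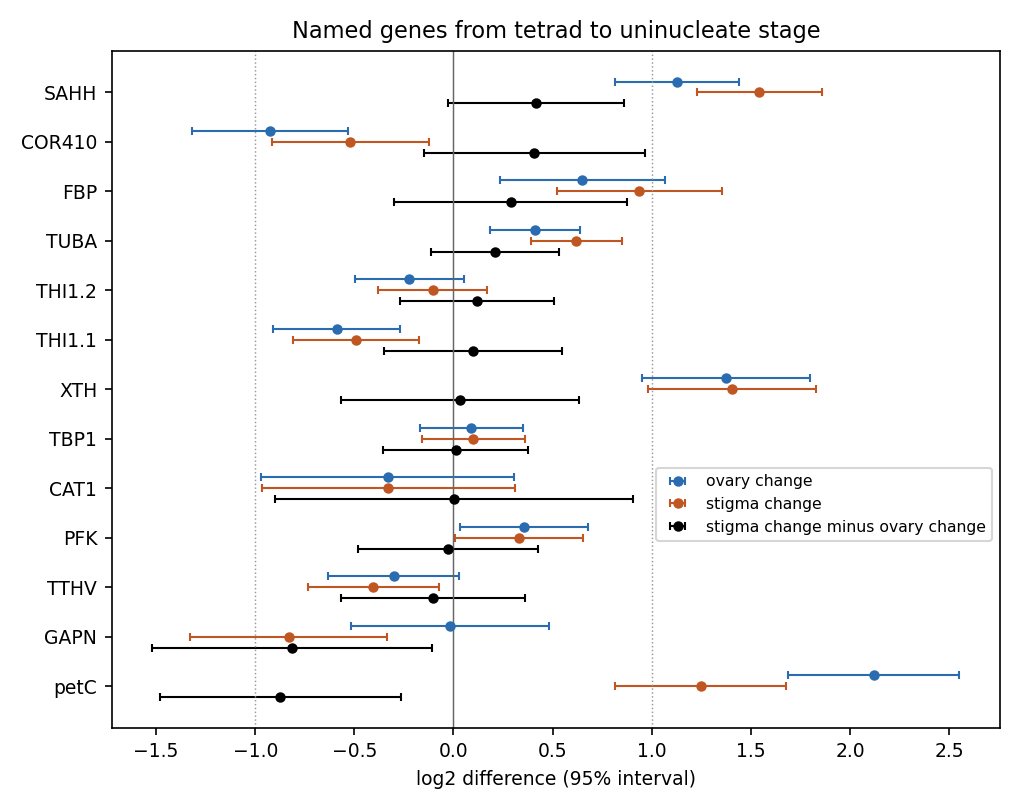
Log2 change from TET to UNM in the ovary and in the stigma, and the stigma change minus the ovary change, on the x axis for the 13 named genes, with 95% intervals from the limma fit and dotted lines at 1 and -1. Only petC and GAPN have an interval of the difference, -1.48 to -0.26 and -1.52 to -0.11, that leaves out 0.

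A further 1254 probe sets carried a bare locus number. Of these, 11 (0.877%) were called higher in the difference of changes and 40 (3.19%) lower, where 0.574% and 0.857% of all probe sets were. Rises within an organ were also called more often, at 17.5% of them in the ovary and 16.4% in the stigma. The shares of all probe sets were 7.18% and 7.34%. Falls were called at 3.91% and 4.07% of them, against 3.77% and 3.67%. The lower list held more probe sets of shared transcript families, with 23.3% carrying the suffix _x_at against 11.1% of all probe sets. The 524 came from 421 cluster numbers and the 351 from 316, so some members of each list read the same or related transcripts. Leaving out probe sets with the suffix _x_at or _s_at, an alternative added after the data were seen, gave 286 higher and 359 lower calls.

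Beside these changes, the ubiquitin maintenance control gave a different change for each segment of its transcript. Its 5' probe set rose from 11.04, 10.99 and 10.98 to 13.16, 13.44 and 13.28 in the ovary and from 10.61, 10.72 and 10.63 to 13.06, 12.99 and 12.83 in the stigma. Its 3' probe set rose by 0.43 in the ovary and 0.48 in the stigma. The signal of the 3' minus that of the 5' probe set went from 0.17 to -1.69 in the ovary, from 0.41 to -1.42 in the stigma and from 0.56 to -1.07 in anthers. The same measure moved the other way in the ovary for 3 other controls. It went from 3.22 to 4.41 in the ovary and from 3.65 to 4.67 in the stigma for G-6-PDH, from 0.97 to 1.84 and from 1.71 to 3.37 for CYP86-TA, and from 7.67 to 8.70 and from 7.63 to 7.81 for sucrose synthase, whose stigma arrays overlapped between the stages. The 5' segments of G-6-PDH and sucrose synthase were under 6, near the floor, in both organs at both stages. The changes of the ubiquitin 5' segment were 2.29, 2.31 and 2.05 in these organs, and the difference of changes between stigma and ovary was 0.02. How far the position of a probe set in its transcript moves with the changes reported here was not tested.

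**Figure D5:**
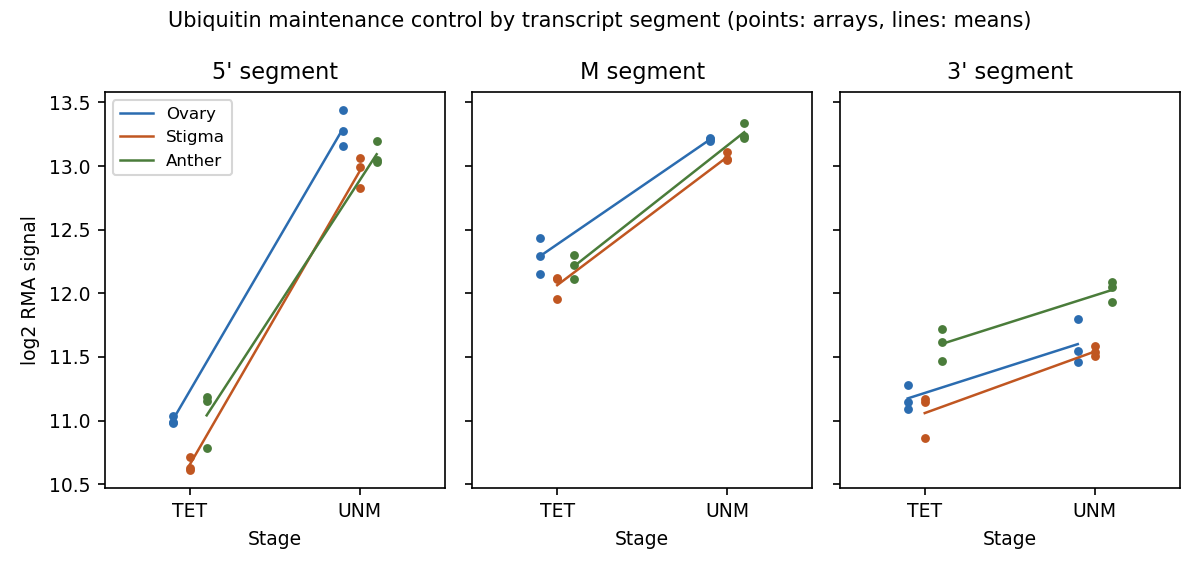
Log2 RMA signal of the ubiquitin maintenance control on the y axis at TET and UNM on the x axis, in panels for the 5', middle and 3' segments, with points for arrays and lines through means of 3 arrays in ovary, stigma and anther. The 5' segment rose by 2.05 to 2.31 in all 3 organs and the 3' segment by 0.42 to 0.48.

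Among the other maintenance controls, the middle segment of sucrose synthase (Sucsyn), an enzyme that cleaves sucrose in sink tissues, was 8.11, 7.96 and 8.12 in Ovary TET, 8.48, 8.73 and 8.10 in Ovary UNM, 7.63, 7.61 and 7.79 in Stigma TET, and 7.16, 7.05 and 6.85 in Stigma UNM. The stigma arrays were below the ovary arrays at both stages, and the changes were 0.37 and -0.66. The 3' segment of CYP86-TA, a cytochrome P450 of the fatty acid hydroxylase family, changed by 0.82 in the ovary and 1.66 in the stigma. The 3' segment of G-6-PDH, glucose-6-phosphate dehydrogenase of the oxidative pentose phosphate pathway, changed by 1.35 and 1.26, with -0.61 in anthers, and the ovary and stigma arrays overlapped at TET. These controls were left out of the tested probe sets and have no p-value here.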

How the data were processed

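The deposited values were log2 RMA signals, per the submitters' processing notes; neither the RMA version nor whether the 39 arrays were processed in 1 run was given in the sources used here. The 111 AFFX probe sets were left out. One mean per group was fitted over the 39 arrays with limma 3.58.1 (R 4.3.3), whose eBayes step pooled the spread, and p-values were adjusted by the Benjamini-Hochberg method over 61179 probe sets. Calls needed an adjusted p under 0.05 together with a change of 1 log2 unit or more. The fit was tested on simulated data. The number of arrays limits the precision. Replicates are biological per the labels. Deviations of same-numbered arrays from their group means had correlations of -0.13 to 0.23. The highest was for replicate 1 of Ovary TET and Stigma TET. Arrays with unlike numbers were not compared in this way, and numbers were not taken as pairs.

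The comparison, the gene lists and the tests were chosen with earlier results of these data known. Text names every named gene and, per comparison and direction, up to 2 unnamed probe sets, those with the largest called difference, no overlap between the compared arrays and a brighter group mean of at least 8. A gene was represented by its brightest probe set. No list reached the minimum of 5 named genes. Alternatives changed the scaling, the low-signal filter, the arrays, the variance model and the thresholds.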

Additional observations from a re-analysis of the deposited data

Results flagged for a closer look

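The organs' changes differed, by the test of the difference itself in limma, for 351 probe sets in which the stigma change was higher and for 524 in which it was lower. Among those given by ID, the difference was 7.69 for Ta.3873.1.S1_at, 5.46 for Ta.9169.1.S1_at, -5.52 for TaAffx.38488.1.A1_at and -5.19 for Ta.1671.2.A1_x_at.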

How the results depend on the processing

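Counts are given as higher and lower calls. For the difference of changes, scaling on the hybridisation controls gave 170 and 1147, an adjusted p under 0.01 gave 320 lower calls, and a brightest group of at least 8, chosen after seeing the data, gave 207 and 290. Leaving out 1 array in turn gave 277 to 386 and 399 to 573. The replicate block gave 329 and 511, and no pairing of the numbers was read. In the ovary, hybridisation controls gave 2145 and 9823, the median of the brighter 50% gave 4074 lower calls, no minimum fold gave 10458 and 12559, the replicate block gave 4377 and 2290, and leaving out 1 array gave 4084 to 4639 and 2274 to 2542. In the stigma these were 1345 and 24343, 3417 lower calls, 10493 and 11200, 4466 and 2233, and 4268 to 4635 and 2080 to 2724. Of the 351 higher calls 221 were also higher at BCP, and under the hybridisation controls 129 of 170 were. For the lower calls these were 298 of 524 and 426 of 1147. The cause of these moves was not tested, apart from the fewer probe sets kept by stricter thresholds. For single genes and IDs, 0 of the called values reversed and 6 lost their call. Of the values without a call, 22 gained one, and 42 stayed without a call but moved by more than their error. The 22 include changes already under the adjusted p limit, which dropping the minimum fold makes calls by itself. Shifts of values that stayed called were not counted. Under the hybridisation controls petC was called in the difference of changes (-1.19, adjusted p = 0.028, where the alternatives ranged from 0.028 to 0.41), and the stigma rise of petC (0.40) and both rises of XTH and SAHH fell short of 1. Signals under 6 limit what can be said of dim genes.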
